A study of Mus musculus with 16 samples.

Results

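The Serpin family was followed in mouse liver as all genes whose symbol starts with Serpin and that have a row in the normalised value table, the pseudogene Serpina4-ps1 included. The rule gave 55 of 47102 genes on the array, measured by 79 probes, and each gene was represented by its probe with the highest mean over the 16 arrays. Of these 55 members, 38 could be tested, because that probe was well above background on at least 4 arrays. The other 17 were not tested.

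Total RNA came from the livers of 16 male mice aged 6 weeks, on a background of 75% C57BL/6 and 25% SV129, with 1 single-colour array per mouse. The 4 genotypes of CerS2 (ceramide synthase 2, which makes ceramides with very long acyl chains) had 4 mice each. They are WT, Flox (also called delneo in the labels), H/A (also HA) and Del (also delHox), and the study asks how the enzyme's catalytic activity bears on transcription. The labels do not say what the Flox, H/A and Del alleles contain, nor whether the animals came from separate litters or cages, so p-values measure the spread between these 16 mice. Cers2 itself was not analysed here, so the genotypes rest on the labels alone.

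Between 51.6% and 65.1% of probes were well above background on an array, and 0 spots were saturated. Before scaling, the 75th percentile of the signal lay between 110 and 174 units in H/A and between 89.8 and 99.1 in WT, so the H/A arrays were the brighter ones. For 6 of 16 samples label and listed scanner file named different slides: H/A replicate 4, WT replicate 3, Del replicate 1 and Flox replicates 1, 2 and 4. Replicates are numbered here in sample order within each genotype, since the labels give no replicate numbers. All 6 value columns matched the file at the labelled slide and position (r from 0.885 to 0.996 over probes) rather than the listed file (r from -0.3 to 0.168). The values below are those of the table's columns, and results from the 10 arrays without this mismatch are given beside the chromosome 12 genes and Serpinb6a. Those 10 hold 1 Flox liver, which is then assumed to vary like the other groups. By label, their H/A livers lie on the first slide, their Del and Flox livers on the second, and their WT livers on both. Genotype and slide are therefore partly mixed in those 10. The listed files place every H/A array on the first slide and every Del array on the second, so a block by listed slide partly follows genotype. Hepatocyte markers (Alb, Ttr, Apoa1 and 5 others) were measured on all arrays, with a summed log2 signal from 17.99 to 18.18. Of 9 markers of Kupffer cells and macrophages, 8 rose in H/A and 7 in Del against WT. These are 88.9% and 77.8%, against 7.08% and 8.86% of all genes tested. The summed log2 signal of the 9 markers was 11.69 to 12.65 in WT and 11.95 to 12.54 in Flox. In H/A it was 12.93 to 13.97 and in Del 13.09 to 13.22. In whole liver, fewer cells of a type and less RNA per cell cannot be told apart.

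Serpins are proteins with an exposed reactive loop that acts as bait for a protease. Cleavage makes the loop snap into the body of the inhibitor, and the protease stays trapped and distorted. Hepatocytes secrete most plasma serpins, which restrain elastase, thrombin, plasmin and the complement proteases, while the clade B serpins stay inside cells and protect them from leaked lysosomal and granule proteases. Some members inhibit nothing and serve as hormone carriers or, for Serpinh1, as a collagen chaperone. In the mouse the single human alpha-1 antitrypsin and antichymotrypsin genes correspond to arrays of duplicated genes, Serpina1a to Serpina1f and the Serpina3 genes, which lie with Serpina6, Serpina11, Serpina12 and Serpina4-ps1 in 1 cluster on chromosome 12.

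Because duplicated genes share sequence, probes of some members with main results are shown first, each by its first 30 bases, 5′ to 3′. The Serpina1d and Serpina1e probes are not shown. Among the bases shown, capitals mark those in a run of 15 or more shared with a probe of another transcript on the array.
Serpina4-ps1: gtttgaaagtgggagagaccctcctagggt
Serpina12: ggagaccccacgacatatgaagctagacag
Serpinb6a, brighter probe: cgacagcacatcaacacctgggtagccaaa
Serpinb6a, dimmer probe: AAGTGACCTTATCCATAAGTGCAATGgcaa
Serpina1a, brighter probe: gtagatcccacacataaatgaccaccctaa
Serpina1a, dimmer probe: agaagtttctggaagaggccaagaaccatt
Serpina1b: aggttagtccagatccataTCCCCAGACTG
Serpina1c: aaactctcagcaaggagctcatctccaagt
The dimmer Serpinb6a probe shares 26 bases with a probe of an unnamed predicted transcript, and the Serpina1b probe shares 25 with another. The Serpina1b run continues past the bases shown. The brighter Serpina1a probe shares 15 bases with a probe of Clrn2, all past the bases shown. The Serpina1d probe shares 18 with a probe of a transcript without a symbol here, well above background on 16 arrays. Transcripts without a symbol were not counted as members. Among members, the chosen probes of 5 genes shared at least 15 bases with a probe of another member, and the longest such run was 19 bases. Probes were compared only with probes, so binding of a probe to a paralogue's transcript was not tested, and values within the Serpina1 and Serpina3 groups may be partly shared.

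A promoter window, 250 bases before and 50 after the annotated start, was given for 46 of the 55 members in the RefSeq table of GRCm38.p6. The stretches upstream of the Serpina1a to Serpina1e starts are shown, because these neighbouring genes are near copies and 4 of them moved together in the results below. Capitals mark GTTAAT, a short stretch that all 5 share.
Serpina1a (chr12:103863620-103863719, strand -): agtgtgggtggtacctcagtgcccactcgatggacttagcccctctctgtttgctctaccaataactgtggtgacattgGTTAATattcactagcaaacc
Serpina1b (chr12:103738190-103738289, strand -): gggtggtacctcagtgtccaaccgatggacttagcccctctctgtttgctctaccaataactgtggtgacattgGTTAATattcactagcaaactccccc
Serpina1c (chr12:103904951-103905050, strand -): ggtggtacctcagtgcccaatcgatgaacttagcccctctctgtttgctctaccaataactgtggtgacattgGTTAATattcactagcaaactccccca
Serpina1d (chr12:103773634-103773733, strand -): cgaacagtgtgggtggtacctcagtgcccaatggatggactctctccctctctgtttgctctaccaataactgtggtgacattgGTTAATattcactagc
Serpina1e (chr12:103956898-103956997, strand -): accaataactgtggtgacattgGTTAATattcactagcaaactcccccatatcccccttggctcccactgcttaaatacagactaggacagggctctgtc
All 5 windows contained GTTAAT within a shared run of 59 identical bases, 16 to 27 bases before the start in Serpina1a to Serpina1d and 78 bases before it in Serpina1e. Over all aligned columns, the windows of Serpina1a to Serpina1d were 85.2% to 91.4% identical to each other. The window of Serpina1e is shifted against theirs by its annotated start, and in the overlap it was 95.2% to 97.6% identical to those of Serpina1a, Serpina1b and Serpina1c. In the alignment with Serpina1d the overlap could not be separated from the ends. On either strand GTTAAT occurred in 7.1% of the 32851 windows in the table and in 9 of 54 windows of members. The AP-1 motif TGANTCA was found in 7.81% of all windows and in 11 of the members', among them Serpina1a to Serpina1d. For the STAT motif TTCNNNGAA these figures were 8.3% and 10, for TATAAA 13.62% and 14, and for TGACNNNGC, the core of the NRF2 element, 12.39% and 3, Serpinb6a among them. These motifs were chosen after the expression values were known, overlaps between them were not removed, and a match in letters is not evidence of binding.

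In H/A against WT, 9 of 38 tested members changed: 7 fell, which is 18.4% of the tested members against 2.97% of all 31471 genes tested, and 2 rose (5.3%, against 7.08% of all genes). In Del against WT 13 changed, or 3 with the slide of the listed files as a block and 6 on the 10 arrays without a mismatch. Here 11 fell (28.9%, against 4.38% of all genes) and 2 rose (5.3%, against 8.86%). With the labelled slide, which the values matched, as a block, 14 changed in Del against WT. The comparison of Del with Flox, its other control, called 15 members, or 2 on the arrays without a mismatch, where 1 Flox liver remains. There 11 were lower (28.9%, against 18.2% of all genes) and 4 higher (10.5%, against 16.6%). The median difference of the 38 members was -0.28 on the log2 scale in each of these 3 comparisons, against -0.10, -0.11 and -0.14 for all genes. Del against WT and Del against Flox share the Del arrays, and H/A and Del share WT as a control, so these counts are not independent. Members passed the background filter through any group, so a member bright in only some groups was bound to differ. Serpinb9, counted as higher in all 3 comparisons, is such a member and was not well above background on any WT or Flox array. With the arrays left unscaled, 6 members rose and 2 fell in H/A, where the median of all genes lay higher by 0.47. Of all genes called there, 98.7% were higher. The scanner file listed for each sample called 5, 0 and 0 of all 31471 genes in the 3 comparisons. With the scanner file listed for each sample in place of the one that matched its values, 0 members were called in any of the 3, and on the first slide alone, which holds 1 Del liver, also 0.

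All 7 members that fell in H/A came from the chromosome 12 cluster, where 19 of 21 members were tested and the median difference was -0.73. Gene order was taken among the members alone, so other genes may lie between them. In that order the 8 consecutive members Serpina1b, Serpina1d, Serpina1a, Serpina1c, Serpina1e, Serpina11, Serpina12 and Serpina4-ps1 held all 7 that fell. Of these 8, Serpina1a was the gene not called. On one flank Serpina6 and Serpina1f were not called. On the other, past Serpina5 and Serpina3a, which were not tested, 0 of the 9 tested Serpina3 genes were called in H/A. The same 7 genes fell in Del against WT and in Del against Flox, with 3 Serpina3 genes added in each. That makes 10 of 19 in each Del comparison, beside 7 of 19 in H/A. Of all genes, 2.97% fell in H/A, 4.38% in Del against WT and 18.2% in Del against Flox. Outside chromosome 12, only Serpinb6b fell in either Del comparison.

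**Figure D1:**
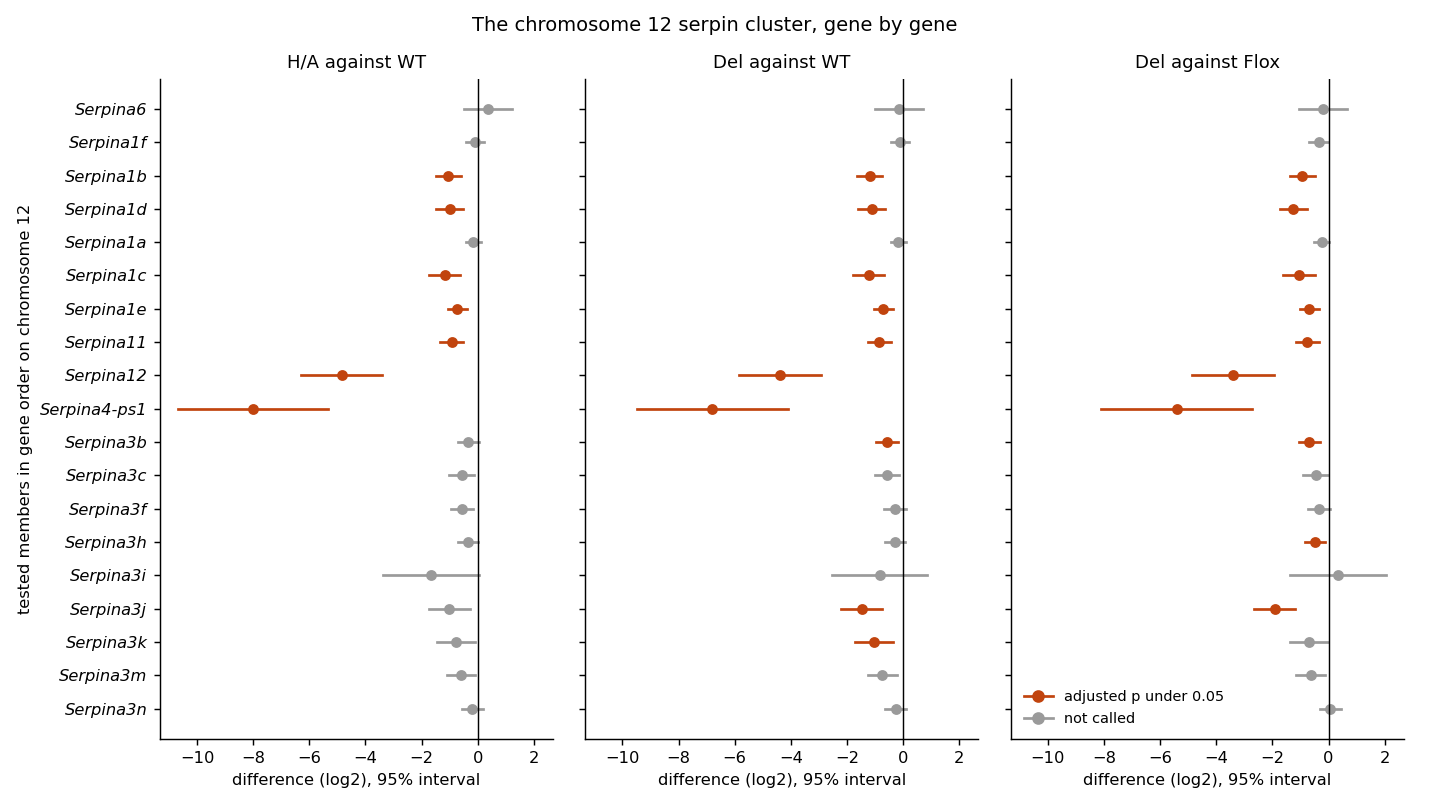
Differences on the log2 scale (x axis, point) with 95% intervals (line) for the 19 tested members of the chromosome 12 cluster in gene order (y axis), in 3 comparisons with 4 arrays a group. Orange marks an adjusted p under 0.05; Serpina12 and Serpina4-ps1 lie far to the left of the other genes, and the intervals of Serpina6 and Serpina3n include 0 in all 3 comparisons.

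Serpina4-ps1, a transcribed pseudogene that makes no serpin, showed the widest range of any member. Its log2 signal was 12.96, 13.58, 11.62 and 13.90 in the 4 WT livers and 6.71, 12.93, 13.84 and 13 in the Flox livers. In H/A it was 6.07, 4.69, 2.75 and 6.55, and in Del 6.11, 4.85, 6.16 and 7.72. All H/A and Del livers thus lay below all WT livers, while Flox replicate 1 lay among the H/A and Del values. The H/A liver with the lowest value was the only array of 16 on which the probe was not well above background. The level was lower by 8.0 log2 units in H/A than in WT, a 256-fold difference (95% interval of the log2 difference -10.68 to -5.32, adjusted p = 0.00141). In Del it fell by 6.80 against WT (-9.49 to -4.12, adjusted p = 0.00261) and by 5.41 against Flox (-8.09 to -2.72, adjusted p = 0.00699). Without Flox replicate 1 the last difference was -7.04, and on the 10 arrays without a file mismatch the 3 differences were -8.98, -7.23 and -7.59.

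Serpina12 encodes vaspin, a serpin described as an insulin-sensitising adipokine that the mouse liver also expresses. In WT the log2 signal was 11.55, 11.48, 10.04 and 12.01, and in H/A 7.08, 6.61, 5.13 and 6.86. Del livers gave 7.05, 6.10, 7.15 and 7.25, and Flox livers 7.80, 10.95, 10.60 and 11.76. No H/A or Del value reached any WT or Flox value, although Flox replicate 1 lay nearer to the Del livers than to the other Flox livers. The fall was 4.85 log2 units in H/A against WT (28.8-fold, adjusted p = 0.000717), 4.38 in Del against WT (20.9-fold, adjusted p = 0.000801) and 3.39 in Del against Flox (10.5-fold, adjusted p = 0.00318). On the arrays without a mismatch these were -5.40, -4.85 and -3.77, all called. Flox replicate 1 therefore stood low for both Serpina4-ps1 and Serpina12. It was also the lowest Flox liver for Serpina11, Serpina1b, Serpina1c, Serpina1d and Serpina1e.

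Serpina11 is a secreted serpin of the same cluster whose target is not established. Its log2 signal was 12.20, 12.12, 12.03 and 12.54 in WT and 11.67, 12.15, 12.22 and 12.51 in Flox. It was 11.43, 11.35, 10.88 and 11.53 in H/A and 11.19, 11.25, 11.43 and 11.66 in Del, so neither group overlapped WT, and the highest Del liver just missed the lowest Flox liver. The falls were 0.93 (adjusted p = 0.00725), 0.84 (adjusted p = 0.009) and 0.76 (adjusted p = 0.0101) in H/A against WT, Del against WT and Del against Flox. Its second, dimmer probe gave -1.10, -1.15 and -0.91. On the arrays without a mismatch the differences were -1.07, -0.84 and -0.77, of which the first was called (adjusted p = 0.036, 0.0542 and 0.212), and with the listed slide as a block the call in Del against WT was lost (adjusted p = 0.101).

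The Serpina1 genes encode the mouse forms of alpha-1 antitrypsin, the main plasma inhibitor of neutrophil elastase. Of the 6 members, all tested, Serpina1b to Serpina1e fell in all 3 comparisons, and Serpina1a and Serpina1f were not called in any. That is 66.7% of the group in each, against 2.97%, 4.38% and 18.2% of all genes. Serpina1b stood at 14.57, 14.36, 13.94 and 14.32 in WT, 13.47, 14.16, 14.00 and 14.51 in Flox, 13.58, 13.45, 12.86 and 13.14 in H/A and 12.90, 13.08, 13.29 and 13.14 in Del. Both mutant groups were below all WT livers, by 1.04 in H/A (2.06-fold, adjusted p = 0.00687) and 1.19 in Del (2.29-fold, adjusted p = 0.0018), and Del was 0.93 below Flox (adjusted p = 0.00601).

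Serpina1c gave 13.18, 12.93, 12.46 and 12.81 in WT, 12.02, 12.80, 12.74 and 13.14 in Flox, 12.13, 11.99, 10.93 and 11.64 in H/A and 11.42, 11.46, 11.92 and 11.68 in Del. The highest H/A liver lay below the lowest WT liver, and the difference was -1.18 in H/A (adjusted p = 0.0126), -1.23 in Del against WT (adjusted p = 0.00685) and -1.06 in Del against Flox (adjusted p = 0.0101). Serpina1d was tighter in Del than in H/A: 11.89, 11.83, 11.82 and 11.66 in Del and 12.64, 12.05, 11.32 and 11.64 in H/A, with 13.36, 12.80, 12.69 and 12.81 in WT and 12.88, 13.24, 13.04 and 13.07 in Flox. No H/A or Del liver reached the lowest WT liver, and the falls were 1.0 (adjusted p = 0.0127), 1.11 (adjusted p = 0.00473) and 1.25 (adjusted p = 0.00154) in the same order.

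Serpina1e, whose annotated start is shifted in the windows above, had 15.82, 15.99, 15.82 and 15.99 in WT, 15.45, 15.82, 15.91 and 16.30 in Flox, 15.21, 15.18, 14.88 and 15.45 in H/A and 15.09, 15.21, 15.26 and 15.21 in Del. H/A and Del did not overlap WT, nor Del Flox, and the falls were 0.73 (adjusted p = 0.0111), 0.71 (adjusted p = 0.00871) and 0.68 (adjusted p = 0.00737).

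On the arrays without a mismatch, Serpina1b and Serpina1e were called against WT in H/A and in Del, Serpina1c in Del only (adjusted p = 0.0658 in H/A), and Serpina1d in neither (0.149 and 0.0603). None of the 4 was called there in Del against Flox (adjusted p from 0.16 to 0.227), with 1 Flox liver, and their differences in the 3 comparisons were between -0.68 and -1.29. With the slide of the listed files as a block, Serpina1b to Serpina1e were called in H/A against WT and in Del against Flox but not in Del against WT (adjusted p from 0.0651 to 0.168).

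**Figure D2:**
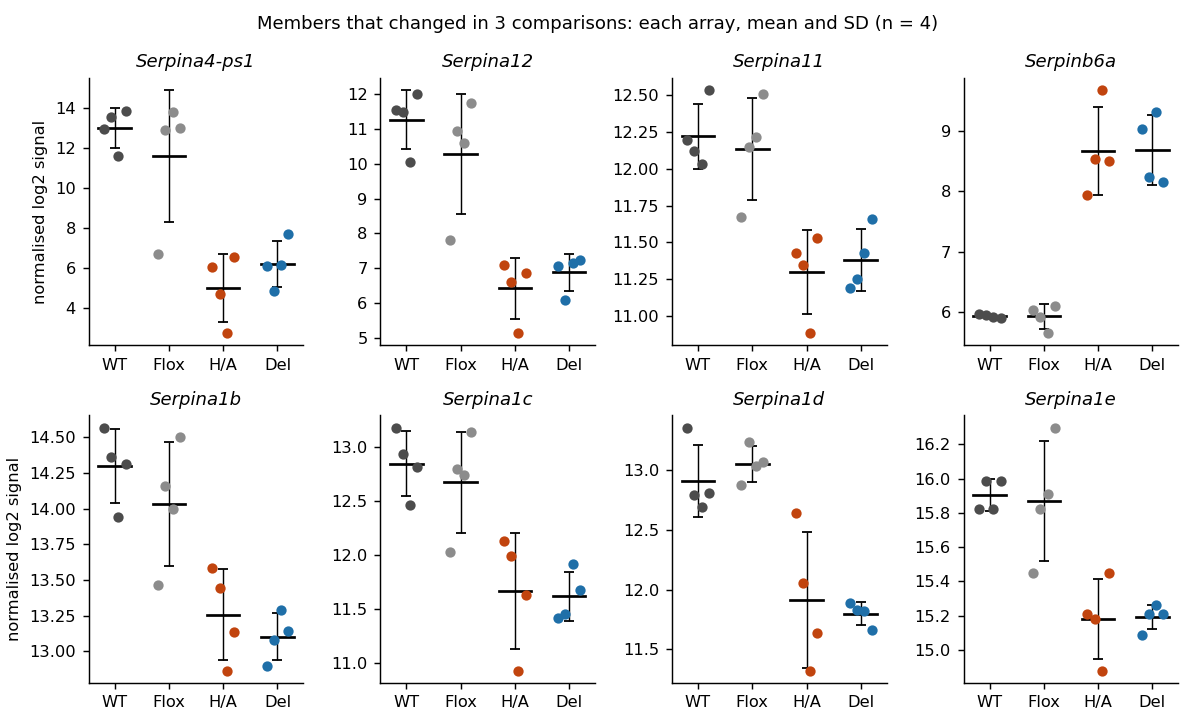
Normalised log2 signal (y axis, a separate scale for each gene) of the 8 members that changed in H/A against WT, Del against WT and Del against Flox and were measured well above background in every group. Points are single livers, bars the mean and SD of 4; the low point in Flox for Serpina4-ps1 and Serpina12 is replicate 1, which stays with the other controls for Serpinb6a.

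Serpina1a gave different answers on its 2 probes. The brighter one read 15.91, 15.65, 15.75 and 15.75 in WT, 15.99, 15.91, 15.82 and 15.65 in Flox, 15.91, 15.59, 15.45 and 15.51 in H/A and 15.65, 15.65, 15.45 and 15.65 in Del, and the groups overlapped. Its differences were -0.15, -0.17 and -0.24 (adjusted p = 0.395, 0.34 and 0.125), and it ranked between place 9 and place 17 of 60037 probes on each array. The dimmer one, still on all 16 arrays, read 14.93, 14.58, 14.67 and 14.88 in WT, 14.44, 14.93, 14.79 and 14.84 in Flox, 14.01, 13.63, 13.16 and 13.39 in H/A and 14.01, 14.03, 13.47 and 13.68 in Del. It separated both mutant groups from their controls without overlap, by -1.22 in H/A (95% interval -1.61 to -0.82), -0.97 in Del against WT (-1.36 to -0.57) and -0.95 in Del against Flox (-1.35 to -0.56). Which of the probes follows Serpina1a itself was not tested. Serpina1f, at 4.98 to 5.83 over the 16 livers, had differences of -0.10, -0.11 and -0.35.

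The Serpina3 genes correspond to antichymotrypsin, an acute-phase inhibitor of chymotrypsin-like proteases such as cathepsin G. Of 10 members 9 were tested, and their median difference was -0.56 in H/A, -0.57 in Del against WT and -0.48 in Del against Flox, although 0 of 9 were called in H/A. In each Del comparison 3 of the 9 fell (33.3%, against 4.38% of all genes with WT and 18.2% with Flox as control). Serpina3j had the smallest p of these in both Del comparisons. Its log2 signal was 10.24, 10.26, 9.68 and 9.64 in WT, 10.01, 10.53, 10.07 and 10.98 in Flox and 8.37, 8.22, 8.59 and 8.73 in Del, and it ran from 7.89 to 9.98 in H/A. All Del livers lay below both controls, with falls of 1.48 against WT (adjusted p = 0.0105) and 1.92 against Flox (adjusted p = 0.00146), while H/A overlapped WT and its difference of -1.0 was not called (adjusted p = 0.0693). On the arrays without a mismatch its differences in Del were -1.53 and -1.56, neither called (adjusted p = 0.0916 and 0.231), and the Serpina3b, Serpina3h and Serpina3k calls below were lost there too.

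Serpina3k, a plasma member also called contrapsin, read 14.47, 14.88, 14.32 and 14.47 in WT, 13.59, 13.96, 14.19 and 14.93 in Flox, 14.15, 14.06, 12.91 and 13.87 in H/A and 13.28, 12.86, 14.02 and 13.78 in Del. No H/A or Del liver reached the lowest WT liver, but Flox overlapped both. It fell by 1.05 in Del against WT (adjusted p = 0.0418), a call that was lost without any 1 of 9 arrays: H/A replicate 4, WT replicates 1 to 4, Del replicates 1 and 2, and Flox replicates 2 and 3 (adjusted p from 0.0503 to 0.0872). Its differences of -0.79 in H/A and -0.68 in Del against Flox were not called (adjusted p = 0.109 and 0.1). Serpina3b fell by 0.57 in Del against WT (adjusted p = 0.0448) and by 0.68 in Del against Flox (adjusted p = 0.012). The first call was lost without any 1 of H/A replicates 2 and 3, WT replicates 1, 2 and 3, Del replicates 1, 3 and 4, and Flox replicate 2 (adjusted p from 0.0527 to 0.149). With all probes of Serpina3b averaged, the difference in Del against Flox reversed in sign. That average includes a probe that was not well above background on any array. The pseudogene Serpina3h fell by 0.48 in Del against Flox (adjusted p = 0.0362), a call lost without any 1 of Del replicates 3 and 4 and Flox replicates 1, 3 and 4 (adjusted p from 0.0556 to 0.125).

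Serpina3m was lower on both of its probes, by unlike amounts. Its brighter probe was not called, at -0.60, -0.74 and -0.63 (adjusted p = 0.108, 0.0539 and 0.0523). On the dimmer probe, WT read 13.35, 13.28, 13.15 and 13.40 and H/A 11.88, 11.52, 11.04 and 11.81, with no overlap, and the differences were -1.73, -1.73 and -1.57 with intervals that exclude 0 (-2.41 to -1.05, -2.41 to -1.05 and -2.25 to -0.90). Flox replicate 1, at 12.07, was again the lowest Flox liver on that probe, the others reading 13.64, 13.29 and 13.57. Serpina3c and Serpina3f had differences from -0.30 to -0.57 that were not called, and Serpina3i was well above background on 11 arrays only.

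Serpina3n, the acute-phase member best known from inflamed tissues, stayed within the spread of its controls. It read 13.09, 13.32, 13.42 and 13.29 in WT, 12.43, 13.16, 13.12 and 13.06 in Flox, 12.79, 13.13, 13.29 and 13.15 in H/A and 12.81, 13.24, 12.74 and 13.26 in Del. Its differences were -0.19, -0.27 and 0.07, with 95% intervals of -0.57 to 0.19, -0.65 to 0.11 and -0.31 to 0.45. Serpina6, corticosteroid-binding globulin, varied widely within groups: 10.59, 10.90, 11 and 10.36 in WT, 11.95, 10.59, 10.25 and 10.29 in Flox, 11.58, 11.14, 10.89 and 10.72 in H/A and 9.74, 11.23, 9.98 and 11.36 in Del. Here Flox replicate 1 was the highest liver of all, and the differences of 0.37, -0.14 and -0.19 were not called (adjusted p = 0.527, 0.822 and 0.716). The thyroxine carrier Serpina7 was not analysed here.

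The plasma serpins of coagulation, fibrinolysis and complement showed differences of at most 0.43 log2 units in these 3 comparisons. Serpinc1 is antithrombin, the inhibitor of thrombin and factor Xa, and read 13.87, 14.01, 14.06 and 13.78 in WT, 14.22, 13.71, 13.77 and 13.91 in Flox, 14.18, 14.30, 14.12 and 14.21 in H/A and 13.95, 14.17, 14.11 and 14.08 in Del. All 4 H/A livers lay above all WT livers, by 0.28 on average (95% interval 0.02 to 0.54), which was not called (adjusted p = 0.134). Its differences in Del were 0.15 against WT and 0.17 against Flox, with overlapping groups.

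Serpind1, heparin cofactor II, read 11.75, 11.85, 11.69 and 11.56 in WT, 11.42, 11.48, 11.46 and 11.52 in Flox, 11.92, 11.88, 11.57 and 11.79 in H/A and 11.48, 11.83, 11.64 and 11.85 in Del. Its differences of 0.08, -0.01 and 0.23 had 95% intervals within -0.26 and 0.48. Serping1, the C1 inhibitor of complement and contact activation, read 12.64, 12.77, 12.64 and 12.66 in WT, 12.35, 12.66, 12.55 and 12.67 in Flox, 12.32, 12.44, 12.57 and 12.62 in H/A and 12.20, 12.48, 12.55 and 12.56 in Del. Every H/A and Del liver was below every WT liver, by 0.19 and 0.23 on average, and neither difference was called (adjusted p = 0.266 and 0.181).

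Serpinf1, pigment epithelium-derived factor, an anti-angiogenic serpin that inhibits no protease, read 12.96, 12.93, 12.89 and 12.92 in WT, 12.87, 12.66, 12.80 and 12.88 in Flox, 12.86, 12.77, 12.50 and 12.69 in H/A and 12.69, 12.78, 12.66 and 12.86 in Del. WT was the highest group without overlap, also against Flox, and the differences of -0.22, -0.17 and -0.05 were not called. Serpinf2, alpha-2 antiplasmin, the fast inhibitor of plasmin, was the 1 plasma serpin to rise: 12.99, 13.23, 13.03 and 12.98 in WT, 12.98, 13.18, 13.04 and 12.84 in Flox, 13.08, 13.31, 13.20 and 13.49 in H/A and 13.54, 13.58, 13.41 and 13.25 in Del. All Del livers exceeded all WT and Flox livers, with a rise of 0.43 against Flox (1.35-fold, adjusted p = 0.0179) and a difference of 0.38 against WT (adjusted p = 0.0517). Without Flox replicate 4 the adjusted p of the rise was 0.0506.

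**Figure D3:**
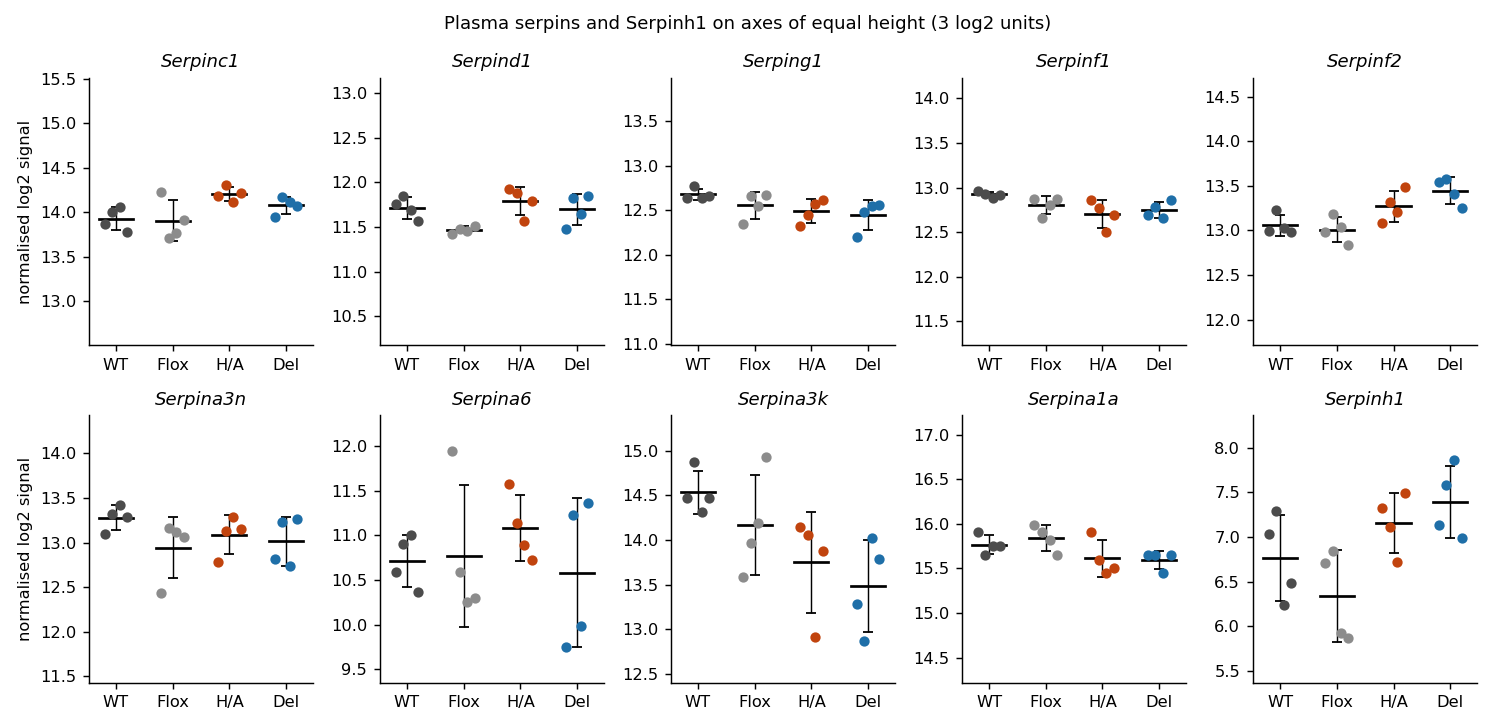
Normalised log2 signal (y axis, 3 log2 units high in every panel) of 9 serpins of hepatocyte secretion and of Serpinh1, for single livers (points) with the mean and SD of 4 (bars). On this common height Serpinc1, Serpind1, Serping1, Serpinf1 and Serpinf2 span at most 0.74 units over all 16 livers, and Serpina3k, Serpina6 and Serpinh1 span 1.99 to 2.21.

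Serpinh1 is HSP47, the collagen chaperone of the endoplasmic reticulum, which stellate cells and fibroblasts make in the liver. It read 7.03, 7.29, 6.24 and 6.48 in WT, 6.71, 6.85, 5.93 and 5.87 in Flox, 7.32, 7.11, 6.72 and 7.49 in H/A and 7.13, 7.58, 7.86 and 6.99 in Del. Del did not overlap Flox and overlapped WT. The rise in Del against Flox was 1.05 (2.07-fold, adjusted p = 0.0149, and 0.0565 without Del replicate 3), and by slide it was 0.35 on the first and 1.58 on the second. The differences of 0.40 in H/A and 0.63 in Del against WT were not called. Its clients and partners in collagen folding were listed as 24 genes, all tested: 4 rose in H/A, 7 in Del against WT and 13 in Del against Flox, 0 fell, and the list's median difference was 0.34, 0.68 and 0.89. The risen shares were 29.2% in Del against WT and 54.2% in Del against Flox, against 8.86% and 16.6% of all genes, and the 4 of 24 in H/A stand against 7.08%. Col4a1, a basement membrane collagen, rose by 0.95, 1.21 and 1.31 (adjusted p = 0.00928, 0.0013 and 0.000591). Fkbp10, a prolyl isomerase of collagen, rose by 0.53, 0.78 and 0.98 (adjusted p = 0.0401, 0.00418 and 0.000658), and Crtap, which helps to modify collagen prolines, by 0.79, 0.86 and 1.36 (adjusted p = 0.034, 0.0172 and 0.000736). Of 9 stellate cell and fibroblast markers, some of which are collagens on that list, 0 were called in H/A or Del against WT. In Del against Flox 4 rose, which is 44.4% against 16.6% of all genes. The summed log2 signal of the 9 markers was 13.07 to 13.19 in Flox and 13.32 to 13.68 in Del. Their part in the Serpinh1 difference was not tested.

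Among the 24 clade B members, which act inside cells, 12 were tested. Serpinb6a, an inhibitor of cathepsin G and other serine proteases that is found in many cell types, had the smallest p of all members. It read 5.97, 5.96, 5.91 and 5.90 in WT, 6.04, 5.91, 5.65 and 6.10 in Flox, 7.94, 8.54, 9.68 and 8.51 in H/A and 9.04, 8.24, 9.32 and 8.16 in Del. All H/A and Del livers lay above all WT and Flox livers, and the controls were close to each other. The rise was 2.73 in H/A against WT (6.63-fold, 95% interval 2.07 to 3.39, adjusted p = 0.000169), 2.75 in Del against WT (6.74-fold, adjusted p = 7.29e-05) and 2.76 in Del against Flox (6.79-fold, adjusted p = 7.11e-05). The dimmer probe, also on all 16 arrays, gave 3.39, 2.85 and 3.12. On the 10 arrays without a file mismatch the differences were 2.78, 2.63 and 2.92, the last, with 1 Flox liver, no longer called (adjusted p = 0.0666).

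Serpinb9, the inhibitor of granzyme B in lymphocytes and antigen-presenting cells, was called higher in all 3 comparisons, with fitted differences of 2.15, 2.02 and 1.97 (adjusted p = 0.021, 0.0215 and 0.0142). It read 1.28, 1.22, 1.23 and 1.22 in WT, 1.22, 1.23, 1.47 and 1.2 in Flox, 1.23, 4.37, 4.33 and 3.61 in H/A and 3.45, 3.40, 4.03 and 2.14 in Del. The probe was not well above background on any WT or Flox array, and was so on 3 H/A arrays and 1 Del array. It thus passed the filter through the mutant groups alone, the mutant means lay under the dimmest detected signal of the control arrays, and no fold is given. H/A replicate 1 stayed at the control level. The calls were lost without any 1 of H/A replicates 2, 3 and 4 or WT replicates 3 and 4 in H/A (adjusted p from 0.0507 to 0.0728), without any 1 of WT replicates 3 and 4 or Del replicate 3 in Del against WT (0.0504 to 0.0834), and without Del replicate 3 in Del against Flox (0.0541). Serpinb1a, an inhibitor of neutrophil proteases, read 3.88, 3.33, 1.55 and 2.56 in WT, 4.06, 4.39, 1.85 and 2.38 in Flox, 4.54, 4.35, 4.05 and 4.78 in H/A and 2.75, 3.06, 4.81 and 4.36 in Del, near background on many arrays. All H/A livers exceeded WT, by 1.60 (95% interval 0.32 to 2.88), and the difference was not called (adjusted p = 0.092).

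Serpinb6b is a close relative of Serpinb6a. Its brighter probe fell in Del, by 0.74 against WT (adjusted p = 0.0395) and 0.78 against Flox (adjusted p = 0.0182), and differed by -0.19 in H/A. It read 9.14, 9.66, 9.07 and 8.48 in WT, 9.08, 9.54, 9.14 and 8.74 in Flox, 9.27, 8.76, 8.60 and 8.94 in H/A and 8.33, 8.28, 8.49 and 8.29 in Del, so Del lay below all Flox livers and touched the lowest WT liver. The call against WT was lost without any 1 of WT replicates 1, 2 and 3, Del replicates 1 to 4 and Flox replicate 3 (adjusted p from 0.0511 to 0.0873). A dimmer probe was well above background on 3 H/A and 3 Del arrays and on 0 WT or Flox arrays. It read 2.09 to 2.41 in WT, 1.70 to 3.16 in Flox, 3.48 to 5.40 in H/A and 3.53 to 5.31 in Del, so the controls have no measured level on it. The remaining probe was well above background on 0 arrays. With the 3 probes averaged, the difference in Del was 0.53 against WT and 0.66 against Flox, an average that includes those undetected values. The remaining clade B members that were tested (Serpinb3a, Serpinb6d, Serpinb7, Serpinb8, Serpinb9d, Serpinb9e, Serpinb10 and Serpinb12) had differences between -0.90 and 0.09 in the 3 comparisons, and 0 of 8 were called.

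**Figure D4:**
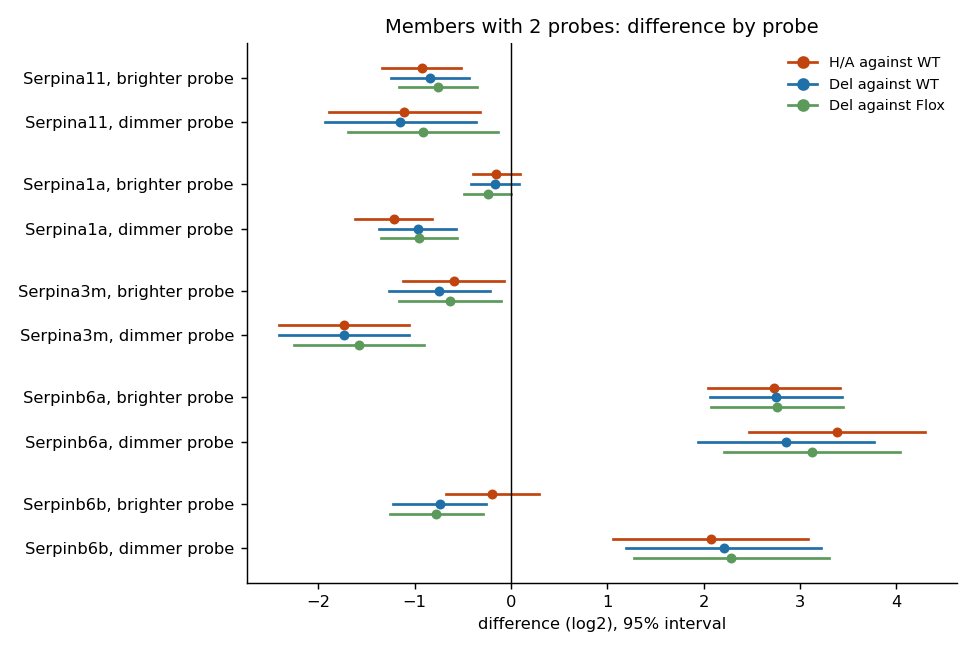
Differences on the log2 scale (x axis) with 95% intervals for each of 2 probes of 5 members, in H/A against WT, Del against WT and Del against Flox (colours; 4 arrays a group). Both probes of Serpina11 and of Serpinb6a move the same way, those of Serpina1a and Serpina3m differ in size, and those of Serpinb6b lie on opposite sides of 0 in Del, where its dimmer probe was not well above background on any control array.

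Beside the Serpinb6a and Serpinb9 calls, 8 of the 9 macrophage markers rose in H/A and 7 in Del against WT. In Del against Flox 6 rose and 1 fell (Csf1r, by 0.72). The shares higher were 88.9%, 77.8% and 66.7%, against 7.08%, 8.86% and 16.6% of all genes. In Del against Flox 11.1% were lower, against 18.2%. Of 6 neutrophil markers tested, 3 rose in H/A, 1 in Del against WT and 1 in Del against Flox (S100a8, by 2.15, 1.70 and 1.45). These 3 of 6, 1 of 6 and 1 of 6 stand against 7.08%, 8.86% and 16.6% of all genes. In Del against Flox the share higher was thus about that of all genes. The summed log2 signal of the 6 neutrophil markers was 12.11 to 12.63 in WT and 12.56 to 12.82 in Flox. It was 12.19 to 12.54 in H/A and 12.10 to 12.61 in Del. Of 6 lymphocyte markers, 0 were called in any of the 3 comparisons. The part of these cells in the clade B differences was not tested.

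The members that were not tested included Serpina3a, Serpina5, Serpinb1b, Serpinb1c, Serpinb2, Serpinb3b, Serpinb3c, Serpinb6e, Serpinb9b, Serpinb9c, Serpinb9f, Serpinb9g, Serpinb11, Serpinb13, Serpine3 and Serpini1. Of all 17, 14 were well above background on 0 arrays and 3 on 1 or 2. Serpine2 was not analysed here. Serpini2, on 11 arrays, had differences of -0.58, -0.14 and -0.04 that were not called.

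Flox and WT differed in 0 of 38 members (0 also at an unadjusted p under 0.05 in limma's test), where 0.00318% of all genes were called higher and 0.0191% lower. The median difference of the members was -0.04. The smallest adjusted p was 0.802, and the extremes were -1.39 for Serpina4-ps1 (95% interval -4.08 to 1.29) and 0.44 for Serpina3j (-0.28 to 1.17). Without Flox replicate 1 the Serpina4-ps1 difference was 0.24. For H/A against Del also 0 of 38 members were called (2 at an unadjusted p under 0.05), against 0.00953% of all genes higher and 0.00318% lower. There the median difference was 0.01, the smallest adjusted p was 0.576, and the extremes were -1.2 for Serpina4-ps1 and 0.69 for Serpinb1a. The intervals stay wide for Serpina4-ps1 (-3.88 to 1.49) and Serpina12 (-1.93 to 0.99), so equality of the mutants is not shown.

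Of 29 tested protease targets of serpins, 4 rose and 1 fell in H/A, 3 rose and 1 fell in Del against WT, and 3 rose and 5 fell in Del against Flox, with a list median of -0.13, -0.15 and -0.12. The shares higher were 13.8%, 10.3% and 10.3%, against 7.08%, 8.86% and 16.6% of all genes, and those lower 3.4%, 3.4% and 17.2%, against 2.97%, 4.38% and 18.2%. The lysosomal cathepsins Ctsl (0.82, 0.78 and 1.22) and Ctss (1.41, 1.25 and 1.71) rose in all 3, and Ctsk rose in H/A and Del against WT by 0.86 and 0.96 but differed by 0.10 in Del against Flox. Coagulation factor VII, F7, fell in Del by 0.74 against WT and 0.44 against Flox, and differed by -0.38 in H/A (adjusted p = 0.0546). Neutrophil elastase, Elane, the main target of antitrypsin, differed by -0.13, -0.18 and -0.37 and was not called.

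Among 28 tested inhibitors that are not serpins, 5 rose and 2 fell in H/A, 4 rose and 4 fell in Del against WT, and 7 rose and 6 fell in Del against Flox (list median -0.12, -0.16 and -0.08). These are 17.9%, 14.3% and 25.0% higher and 7.1%, 14.3% and 21.4% lower, beside the shares of all genes just given. Slpi, the secretory leukocyte protease inhibitor, which like antitrypsin inhibits elastase, was well above background on 13 arrays and read 5.60, 4.64, 3.65 and 4.89 in WT, 3.05, 4.55, 3.36 and 2.15 in Flox, 7.78, 7.99, 8.75 and 6.72 in H/A and 8.55, 6.44, 8.74 and 7.48 in Del. The mutants lay above all controls, by 3.12, 3.11 and 4.53 (adjusted p = 0.00443, 0.00297 and 0.000187). The dimmest detected signal ran from 2.9 to 4.09 over the arrays. Flox values of 3.05, 3.36 and 2.15 and the WT value of 3.65 lie in or under that range. The size of the difference against Flox is therefore poorly measured. Cstb, an inhibitor of lysosomal cathepsins, rose by 1.91, 2.09 and 2.40. Timp1, the metalloproteinase inhibitor, was called higher in H/A and Del against WT, where 1 of 4 WT arrays was well above background. It was not well above background on any Flox array and was at least 7.68-fold higher in Del (measured log2 means 6.36 and 2.93, adjusted p = 0.00067), where the bound sets the Del mean against the higher of the gene's own signal and the dimmest detected signal on each Flox array.

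The machinery that folds, exports and clears serpins was listed as 21 genes, of which 15 were tested. Only Man1b1, a mannosidase of endoplasmic reticulum quality control, rose in H/A (0.40, adjusted p = 0.0318) and in Del against WT (0.64, adjusted p = 0.00132). That is 6.7% of the list in each, below the 7.08% and 8.86% of all genes. In Del against Flox 6 rose, Man1b1, Edem1 and Surf4 with the smallest p (0.56, 0.53 and 0.50), which is 40.0% against 16.6% of all genes, and 0 fell. The list medians were 0.17, 0.02 and 0.12. Surf4 is a cargo receptor for export and Edem1 a lectin of the degradation pathway.

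Of 23 tested genes of interleukin-6 signalling and the acute phase, 2 rose and 4 fell in H/A, 2 rose and 3 fell in Del against WT, and 5 rose and 4 fell in Del against Flox (list median 0.01, -0.27 and 0.03). In H/A and Del against WT 8.7% were higher, against 7.08% and 8.86% of all genes, and 17.4% and 13% lower, against 2.97% and 4.38%. In Del against Flox 21.7% were higher and 17.4% lower, against 16.6% and 18.2%. Lcn2 rose by 2.72, 2.78 and 2.85 and the haem scavenger Hpx by 0.51, 0.58 and 0.56, while the fibrinogen chain Fgg fell by 0.87 in H/A and 0.88 in Del against WT. Growth hormone shapes the expression of several liver serpins, and 11 genes of its signalling were tested (1 higher and 2 lower in each comparison, or 9.1% and 18.2%, the latter equal to the share of all genes lower in Del against Flox, median -0.44, -0.45 and -0.17). The receptor gene Ghr fell by 0.80, 1.01 and 0.83, Onecut1 by 2.42, 2.74 and 1.99, and Igfbp1 rose by 2.43, 1.82 and 2.13. Of 12 hepatocyte transcription factors, Onecut1 was the only one called in H/A and in Del against WT, and Foxa1 also fell in Del against Flox, by 0.57 (1 of 12 lower in H/A and in Del against WT and 2 of 12 in Del against Flox, against 2.97%, 4.38% and 18.2% of all genes, list median -0.18, -0.22 and -0.10). Of 9 tested genes of TGF beta signalling and its matrix partners, 2 rose in H/A and in Del against WT, and 3 rose and 3 fell in Del against Flox (22.2% higher in the first comparisons against 7.08% and 8.86% of all genes, and 33.3% each way in the last against 16.6% and 18.2%, list median -0.07, 0.06 and 0.09). Tgfbr2 rose by 1.80, 1.47 and 1.73 and Smad3 by 0.57, 0.81 and 0.79.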

How the data were processed

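Per the labels' protocols, liver RNA of 16 mice was primed with random and oligo-dT primers, labelled with Cy3 and hybridised to Agilent arrays on 2 slides. Agilent Feature Extraction 11 and Partek are named in the submitters' processing notes. The scanner files hold intensity values with background subtracted, per the file headers. The authors' table, the source of all values given, is in log2 units after quantile normalisation across arrays, as its sorted columns nearly coincide. Symbols were taken through RefSeq accessions (GRCm38.p6), which named 36264 of 60037 probes.

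Each gene was represented by its brightest probe over 16 arrays, and 31471 of 47102 genes, well above background on at least 4 arrays, were tested. A model with 1 mean per genotype was fitted with limma 3.58.1 in R 4.3.3, after a check on simulated data, for 5 comparisons. Genes were called at an adjusted p under 0.05 (Benjamini-Hochberg, every tested gene included), and intervals are 95%. A bound ("at least") uses, per array, the dimmest signal among detected probes. Summed marker signals are log2 of the sum of linear values. Members given in full were the 5 called ones with the smallest p per comparison, Serpina4-ps1, and fixed plasma, chaperone and clade B members. Serpina3m, Serpina11 and Serpinb6b were added after their probes were compared. From each list the 3 genes with the smallest p are drawn on, and Elane and S100a8 were chosen after their values were seen. Members and lists were chosen with earlier results of these data known. Alternatives were scanner signals scaled otherwise or by the listed file, normexp background, filters, probe averaging, slide as a block or alone, limma options and leaving out arrays. Some genes are not reported here. The number of arrays limits precision.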

Additional observations from a re-analysis of the deposited data

Results flagged for a closer look

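Within 96 groups of 4 livers, from 24 members, the highest or lowest liver was checked for a gap to the nearest other liver that, as a share of the group's range, exceeds Dixon's 95% critical value. This marked 6 values, and chance at 1 in 20 groups gives 4.8. Flox replicate 1 gave 2 of them: its log2 signal of Serpina4-ps1 was 6.71 against 12.93 to 13.84 in the other Flox livers, and that of Serpina3n was 12.43 against 13.06 to 13.16. Serpina1a read 15.45 in Del replicate 3 and 15.65 in each of the other Del livers. Serping1 read 12.77 in WT replicate 2 against 12.64 to 12.66. Serpinb9, at background in both control groups, read 1.28 in WT replicate 1 against 1.22 to 1.23, and 1.47 in Flox replicate 3 against 1.2 to 1.23.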

How the results depend on the processing

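No paired analysis was possible because the labels give no replicate numbers. Beside 9 members called in H/A against WT, 13 in Del against WT and 15 in Del against Flox, leaving out each array in turn gave 8 to 13, 9 to 14 and 12 to 17. For Flox against WT and H/A against Del every array left out gave 0. The scanner file listed for each sample gave 0, 0 and 0, and so did the first slide alone. The second slide alone gave 4 in H/A against WT, with 1 H/A liver. Unscaled arrays gave 8 in each of the 3 comparisons, in H/A against WT with 6 higher and 2 lower in place of 2 and 7. The slide of the file names as a block gave 3 in Del against WT, and the labelled slide gave 14. On the arrays whose listed file matched, an alternative chosen after seeing the data, 6 were called in Del against WT and 2 in Del against Flox, the latter with 1 Flox liver. Of the 37 member calls, 36 held with the labelled slide as a block, 14 on the matching arrays and 20 without scaling. With all probes averaged, the differences in Del reversed for Serpinb6b (0.53 against WT and 0.66 against Flox) and for Serpina3b (0.0545 against Flox). For both genes the average includes a probe that was not well above background on any array. The cause of these reversals was not tested. Members near background, such as Serpinb9, have poorly measured differences.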
